A study of Mus musculus with 72 samples.

Results

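Whole-brain transcripts of adult male 129S2 mice were compared with those of adult male DBA/2J mice, with 3 arrays of 129S2 and 3 arrays of DBA/2J. These are 6 of the 72 arrays of a series that covers whole brain and liver of 3 inbred strains at 4 stages, and they were chosen by strain, tissue and stage from the sample titles. The P90 animals were 11 to 14 weeks old and untreated. In the stage names, E is followed by the embryonic day and P by the postnatal day, which gives the age of the younger groups used below. The 129S2 mice had been bought from a French breeder (Charles River) and the DBA/2J mice from The Jackson Laboratory, so strain and supplier cannot be told apart. The 3 arrays of C57BL/6J brain of the same age and also from The Jackson Laboratory, belong to the same normalization set. They are used for the estimate of spread and as values set alongside. The labels do not say whether the 3 replicates of a strain were separate animals, and p-values therefore measure only the spread between these samples, which may be technical. The hour of death is not given in the sources used here. The number of arrays limits the precision.

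An inbred strain is fixed for nearly all of its alleles. A transcript can be apart between strains at every age and in every tissue, or only at certain ages or in certain states of the animal. Immediate early genes are transcribed within minutes of neuronal activity and need no new protein for it. Heat shock genes code for chaperones that refold damaged proteins, and many of them are switched on by heat shock factor. In a sample of whole brain, fewer cells of a type and less RNA per cell cannot be told apart.

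The tissue label was checked on defining markers. The synaptic gene Snap25 lay between 13.66 and 13.71 log2 units on the 129S2 arrays and between 13.70 and 13.77 on the DBA/2J arrays. The hepatocyte genes Fabp1 and Mup3 reached at most 4.14 on any of these 6 arrays, below the array medians of 6.42 to 6.45. The Y-linked transcript Eif2s3y was at 7.78 or above on all 6 arrays. A 129S2 array, replicate 2, stood apart from the others of its strain. Over all probe sets it correlated at 0.995 with replicate 1 and at 0.9953 with replicate 3, against 0.9973 between replicates 1 and 3. With the arrays of the other strains it correlated at 0.9941 to 0.9946. On the 200 probe sets that best separated 129S2 from DBA/2J in younger brains, with DBA/2J set to 0 and 129S2 to 1 and each array left out of its own strain mean, 129S2 replicates 1 and 3 had positions of 1.07 and 1.09, and 129S2 replicate 2 had 0.737. The DBA/2J arrays had positions of 0.006, 0.021 and -0.013. The C57BL/6J arrays had 0.728, 0.725 and 0.734 on this axis, so a position there does not say towards which strain an array lies. Replicates 1 and 3 exceed 1 because replicate 2 is part of the mean they are set against. On the axis from 129S2 to C57BL/6J, 129S2 replicate 2 lay at 0.700, against 1.11 and 1.10 for the other 129S2 arrays. The DBA/2J arrays lay at 0.761 to 0.776 on that axis. The counts of called genes and the differences of named genes are therefore also given without 129S2 replicate 2.

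**Figure D1:**
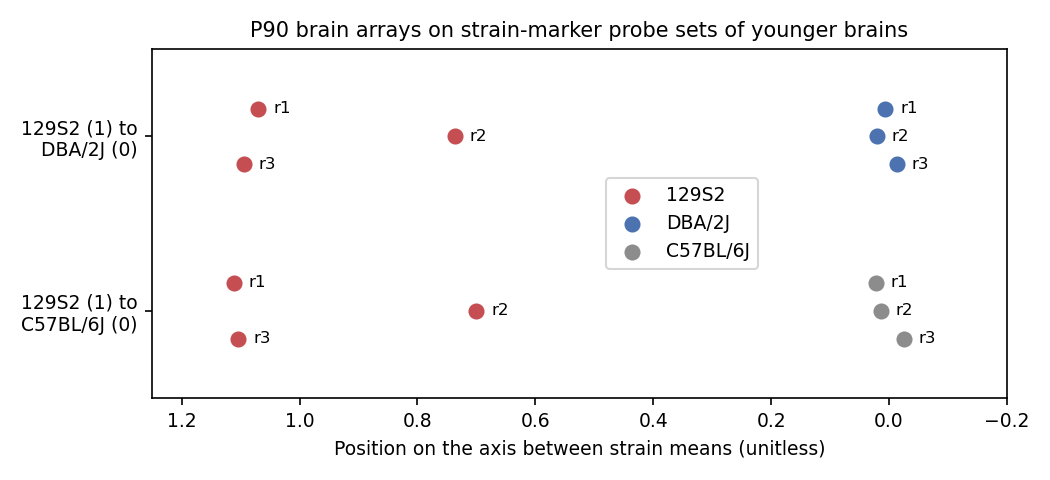
Position of each P90 brain array (unitless, horizontal axis) between 2 strain means, on 200 probe sets chosen in younger brains. Each point is an array and r1 to r3 are replicate numbers. Only arrays of the 2 strains of an axis are drawn. 129S2 replicate 2 lies at 0.737 on the axis to DBA/2J and at 0.700 on the axis to C57BL/6J, apart from the other 129S2 arrays.

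The first question was which transcripts are apart between the adult brains of 129S2 and DBA/2J. Of 11503 genes tested, 203 were called, meaning apart by 1.5-fold or more at an adjusted p below 0.05, which is 1.76% of the genes tested. Of these, 84 were higher in 129S2 (0.73%) and 119 were lower in 129S2 (1.03%), and 72 reached at least 2-fold, with 39 higher and 33 lower. Without 129S2 replicate 2, 284 genes were called (2.47%), 109 of them higher in 129S2 (0.948%) and 175 lower (1.52%), and 94 reached at least 2-fold, with 44 higher and 50 lower. The fits shared 192 called genes, 11 were made only with all arrays and 92 only without replicate 2. The 3 arrays of 129S2 did not overlap with the 3 of DBA/2J in 202 of the 203 called genes, and in 3429 of all 11503 tested genes (29.8%). Replicate 2 was the 129S2 array nearest to DBA/2J in 138 of the 203 called genes, replicate 1 in 32 and replicate 3 in 33. Over all tested genes the counts were 5010, 3238 and 3255 in the same order. Among the called genes that were lower in 129S2, replicate 2 was the nearest in 92 of 119. The lower of the 2 strain means lay above the filter of 6.43 log2 units in 140 of 203 called genes. For the others the size of the difference is not exact, since values near the background of an array are compressed. Among the named genes these are Gdpd3, Pdxdc1, Nek2, Acer3, Sbsn, Sspn, Fggy and Abhd1, with DBA/2J below the filter. With 129S2 below it they are Stab2, Galc, Pcdhb9, Rpgrip1, Cthrc1, Zfp939, Serpina1b, Ccl6, Ctse, Mpeg1, Fosb, Pcdhb12 and Kcnj6.

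**Figure D2:**
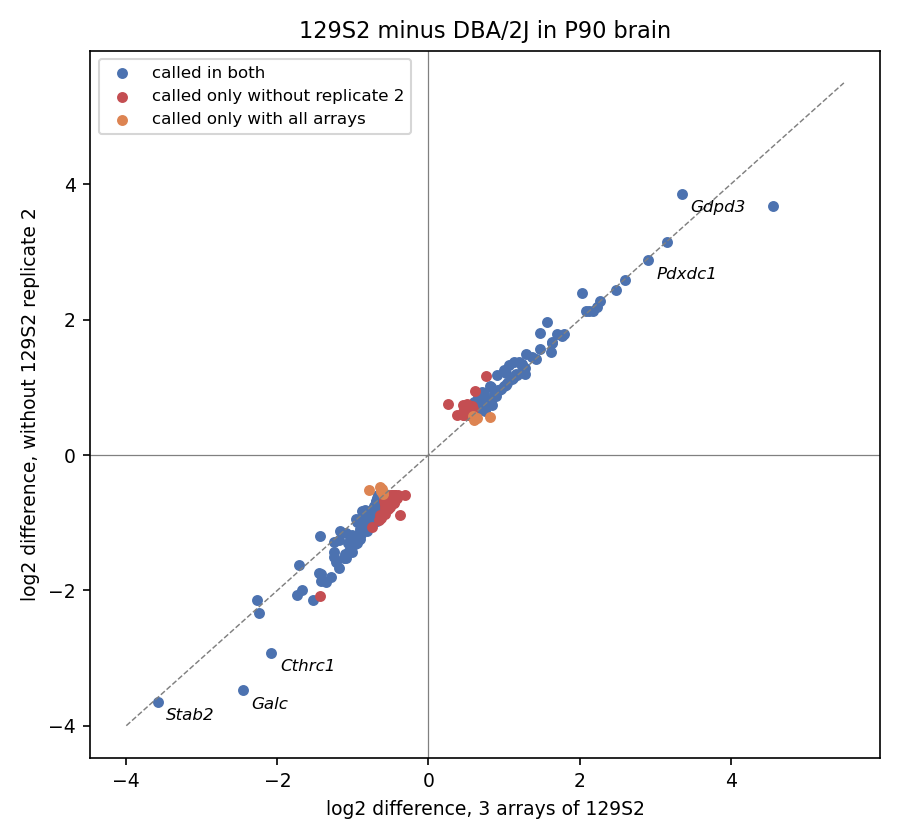
Log2 difference of 129S2 minus DBA/2J in P90 brain with all 3 arrays of 129S2 (horizontal) and without 129S2 replicate 2 (vertical), for each gene called in either fit. Of these, 192 are called in both, 92 only without replicate 2 and 11 only with all arrays. Galc and Cthrc1 lie below the dashed line of equal values, at -3.47 and -2.92 without replicate 2.

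The largest named difference upward was in Gdpd3, which codes for a lysophospholipase D of the glycerophosphodiesterase family. Gdpd3 had 9.53, 8.04 and 9.59 log2 units on the 129S2 arrays, against 5.77, 5.67 and 5.65 on the DBA/2J arrays, and 5.64, 5.65 and 5.49 in C57BL/6J. The 129S2 and DBA/2J arrays did not overlap, and 129S2 replicate 2 lay between the other 129S2 arrays and DBA/2J. The difference was 3.36 ± 0.32 on the log2 scale (± SE, adjusted p = 1.94e-04), a fold of 10.2, and it was 3.86 without replicate 2. The DBA/2J arrays lie below the filter, so the size of this difference is not exact.

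Further transcripts were higher in 129S2. The ceramidase gene Acer3, whose product cleaves ceramides, had 8.29, 8.51 and 8.45 in 129S2, against 5.90, 6.01 and 5.89 in DBA/2J (difference 2.49 ± 0.06, adjusted p = 1.10e-08, 2.44 without replicate 2). The kinase gene Nek2, which acts at the centrosome, had 7.34, 7.47 and 7.50 in 129S2, against 4.80, 5.20 and 4.52 in DBA/2J (difference 2.60 ± 0.13, adjusted p = 1.64e-06, 2.58 without replicate 2). For both genes C57BL/6J lay with 129S2, at 8.08 to 8.21 for Acer3 and at 7.35 to 7.45 for Nek2. Nudt19, a peroxisomal hydrolase of coenzyme A, had 10.31, 10.20 and 10.31 in 129S2, against 8.57, 8.71 and 8.63 in DBA/2J. Its difference of 1.64 ± 0.05 had an adjusted p of 2.73e-08, and it was 1.67 without replicate 2. A second probe set was called the same way at 0.97. Sspn, coding for the dystrophin-associated protein sarcospan, had 7.77, 6.59 and 7.56 in 129S2, against 5.53, 5.22 and 5.08 in DBA/2J, and its difference of 2.03 ± 0.25 became 2.39 without replicate 2. Of the other highest genes, Sbsn (suprabasin, 2.13), the carbohydrate kinase gene Fggy (1.64) and the hydrolase gene Abhd1 (1.62) were also called without replicate 2, at 2.13, 1.66 and 1.52 in that order.

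Among the highest transcripts, 3 are long noncoding RNAs. Neat1, the scaffold of nuclear paraspeckles, had 9.65, 9.54 and 9.71 in 129S2, against 7.62, 7.42 and 7.62 in DBA/2J, a difference of 2.08 ± 0.07 (adjusted p = 3.04e-08). Snhg14, the host transcript of small nucleolar RNAs at the imprinted Prader-Willi locus, had 10.61, 10.68 and 10.50 in 129S2, against 8.17, 8.39 and 8.54 in DBA/2J, a difference of 2.23 ± 0.09. Snhg11, another host of small nucleolar RNAs, had 12.52, 12.19 and 12.31 in 129S2, against 10.61, 10.46 and 10.83 in DBA/2J, a difference of 1.71 ± 0.10. All 3 sets of 129S2 arrays lay above DBA/2J, and C57BL/6J lay with 129S2, at 9.54 to 9.66 for Neat1. A second probe set gave 0.01 for Neat1 and -0.02 for Snhg11, so these differences belong to the probe set read. Without replicate 2 the differences were 2.13 for Neat1, 2.18 for Snhg14 and 1.78 for Snhg11.

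**Figure D3:**
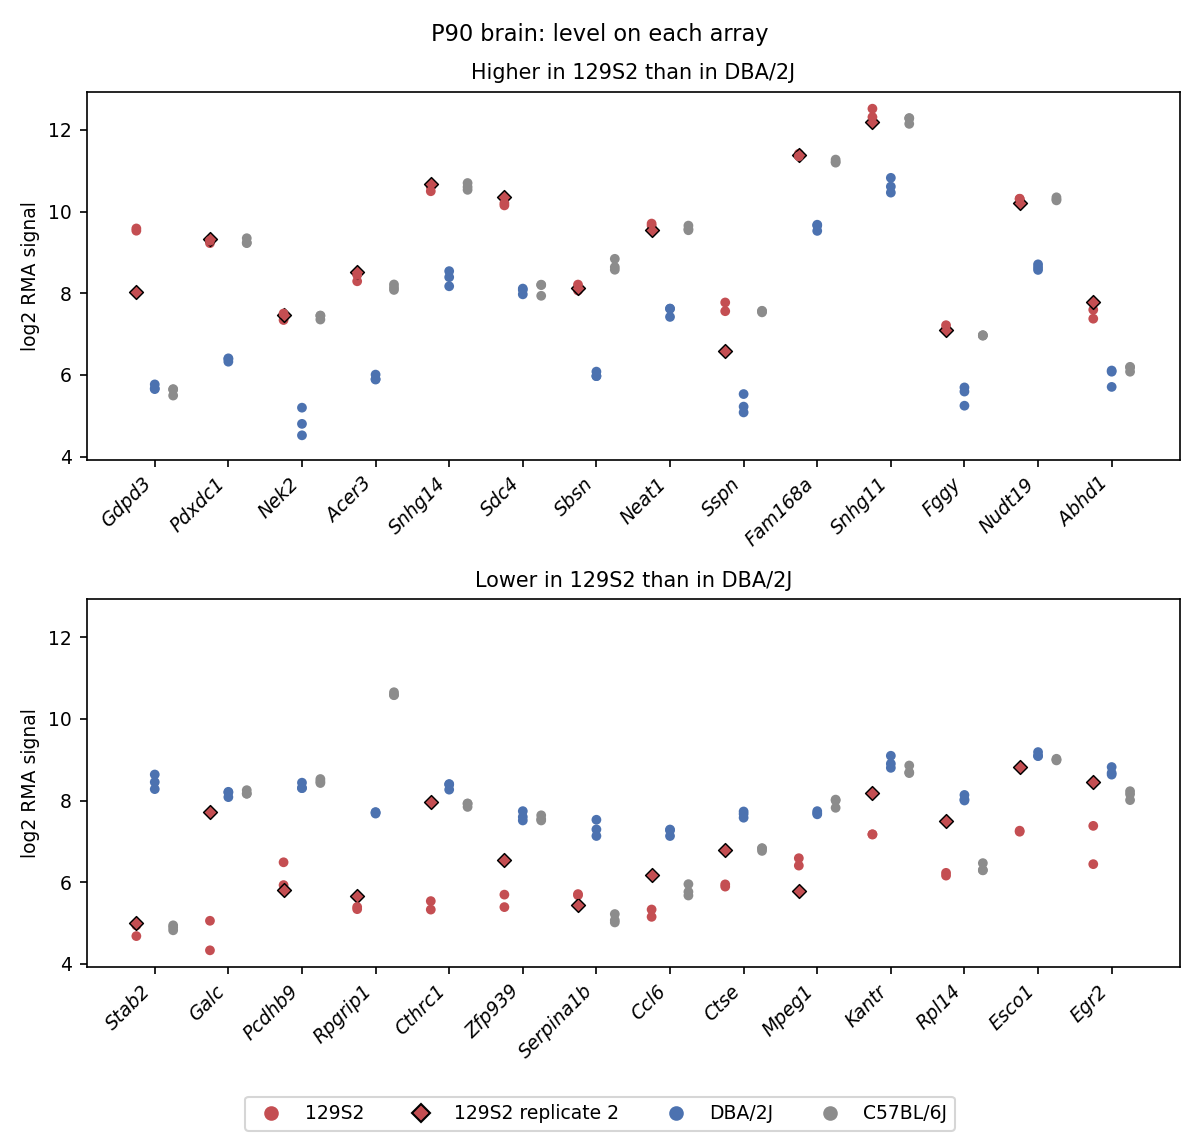
Log2 RMA signal on each P90 brain array for the 14 highest and 14 lowest named genes (vertical axis, log2 units). Points are arrays of 129S2, DBA/2J and C57BL/6J from left to right within a gene, and diamonds mark 129S2 replicate 2. For Galc the diamond stands at 7.73, against 5.06 and 4.33 for the other 129S2 arrays and 8.09 to 8.22 in DBA/2J.

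Among the transcripts lower in 129S2, Stab2 was the furthest apart. It codes for a scavenger receptor for hyaluronan, known from sinusoidal endothelium. Stab2 had 4.94, 5.01 and 4.68 log2 units in 129S2, against 8.45, 8.28 and 8.64 in DBA/2J, and 4.95, 4.89 and 4.82 in C57BL/6J. The difference was -3.58 ± 0.10 (adjusted p = 1.14e-08) and -3.65 without replicate 2. The arrays of 129S2 and C57BL/6J lie below the filter, so DBA/2J is the strain with a measured level. Rpgrip1, a ciliary scaffold of photoreceptors, had 5.34, 5.66 and 5.40 in 129S2, against 7.71, 7.68 and 7.72 in DBA/2J, and 10.58 to 10.65 in C57BL/6J. Its difference was -2.24 ± 0.07 (adjusted p = 3.29e-08), and -2.33 without replicate 2. The 129S2 arrays lie below the filter, so the size of this difference is not exact.

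A group of transcripts was lower in 129S2 replicates 1 and 3 only, or mostly. Galc, the lysosomal galactocerebrosidase that breaks down myelin lipids, had 5.06, 7.73 and 4.33 in 129S2, against 8.09, 8.20 and 8.22 in DBA/2J. Its difference of -2.46 ± 0.65 (adjusted p = 0.0356) was -3.47 without replicate 2 (adjusted p = 3.22e-07). Leaving out any 1 of the other 8 arrays ended the call of Galc, at adjusted p between 0.0543 and 0.117. Cthrc1, which codes for a secreted matrix protein, had 5.54, 7.97 and 5.33 in 129S2, against 8.41, 8.39 and 8.27 in DBA/2J (difference -2.08 ± 0.54, and -2.92 without replicate 2). In both genes replicate 2 lay nearer to the DBA/2J arrays than to the other 129S2 arrays. Cthrc1 lost its call when 7 of the other 8 arrays were left out in turn, at adjusted p between 0.0519 and 0.109. The cohesin acetyltransferase gene Esco1 had 7.24, 8.81 and 7.26 in 129S2, against 9.09, 9.10 and 9.19 in DBA/2J. The ribosomal protein gene Rpl14 had 6.16, 7.51 and 6.23 in 129S2, against 8.14, 8.03 and 8.0 in DBA/2J. The cathepsin E gene Ctse had 5.95, 6.79 and 5.89 in 129S2, against 7.58, 7.67 and 7.73 in DBA/2J. All of them stayed lower in 129S2 without replicate 2, at -1.87 for Esco1, -1.86 for Rpl14 and -1.74 for Ctse, and leaving out 5 of the other 8 arrays in turn ended the call of Esco1 (adjusted p between 0.0639 and 0.0888). The chemokine gene Ccl6 (-1.68, and -1.99 without replicate 2) and the zinc finger gene Zfp939 (-1.74, and -2.07) showed the same order of arrays.

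In contrast, replicate 2 lay with or below the other 129S2 arrays for Pcdhb9 and Mpeg1. Pcdhb9, a clustered protocadherin of neuronal recognition, had 5.93, 5.81 and 6.49 in 129S2, against 8.31, 8.31 and 8.44 in DBA/2J (difference -2.27 ± 0.14, adjusted p = 6.03e-06, and -2.14 without replicate 2). Mpeg1, the pore-forming perforin-2 of macrophages, had 6.41, 5.79 and 6.59 in 129S2, against 7.74, 7.70 and 7.66 in DBA/2J (difference -1.44 ± 0.16, adjusted p = 4.96e-04, and -1.20 without replicate 2). Serpina1b, an alpha-1 antitrypsin gene of a family of near-identical copies, was at -1.71 ± 0.10, and -1.62 without replicate 2. Its probe sets carry a suffix that marks probes which may also match other sequences, so the copy cannot be named with certainty.

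Several of these genes had other probe sets that did not follow the one read, which is the one with the highest mean. Among the 95 called genes with another usable probe set, 46 had another call in the same direction and 82 another probe set of the same sign. Pdxdc1, a pyridoxal-dependent decarboxylase family gene, had 9.23, 9.32 and 9.28 in 129S2, against 6.39, 6.32 and 6.40 in DBA/2J, a difference of 2.90 ± 0.05 (adjusted p = 4.11e-10, and 2.88 without replicate 2). Its other usable probe sets gave -3.72 and 0.86. Sdc4, a heparan sulfate proteoglycan of the cell surface, had 10.15, 10.35 and 10.20 in 129S2, against 7.97, 8.11 and 8.08 in DBA/2J, a difference of 2.18 ± 0.08 (2.12 without replicate 2), while its other probe set gave -1.49 and was called the opposite way. Galc had a second probe set at 0.40, Esco1 at 0.29 and Nr4a3 at 0.09, none of them called. For Fam168a the other probe sets gave 1.15, 0.70 and 0.00 beside 1.77 (1.76 without replicate 2). For the noncoding transcript Kantr they gave 0.15, -0.47 and 0.07 beside -1.42 (-1.76 without replicate 2). When each gene was refitted on the mean of all its probe sets, Pdxdc1 (0.14), Snhg14 (0.56), Sdc4 (0.34), Esco1 (-0.53) and Kantr (-0.42) were no longer called. A gene-level direction cannot be given for Pdxdc1 or Sdc4. The probe sequences were not used here.

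Immediate early genes were mostly below 0. Of 20 measured genes 19 were tested, 17 of them with a negative difference, with a median of -0.47 against -0.003 over all tested genes. Of all 11503 tested genes, 5882 had a negative difference. Of the 19, 5 were called lower in 129S2, against 1.03% of all tested genes, and none was called higher, and Fos (-0.65) and Egr1 (-0.50) were not called. The AP-1 subunit gene Fosb had 5.75, 7.21 and 6.15 log2 units in 129S2, against 7.40, 7.25 and 7.49 in DBA/2J (difference -1.01 ± 0.29, adjusted p = 0.0472). The zinc finger factor gene Egr2 had 6.44, 8.46 and 7.38 in 129S2, against 8.68, 8.64 and 8.82 in DBA/2J (difference -1.28 ± 0.37, adjusted p = 0.0496). The groups did not overlap for either gene, but replicate 2 lay close to DBA/2J. The synaptic plasticity gene Arc had 9.54, 10.74 and 10.10 in 129S2, against 10.90, 11.01 and 10.93 in DBA/2J, and its difference was -0.82 ± 0.22 (adjusted p = 0.0401). The orphan nuclear receptor gene Nr4a3 was at -0.93 ± 0.22, and the neurotrophin gene Bdnf at -0.68 ± 0.11, with 8.16, 8.46 and 8.39 in 129S2, against 9.10, 8.92 and 9.02 in DBA/2J. Nr4a3 lost its call when 4 of the other 8 arrays were left out in turn (adjusted p between 0.0656 and 0.0776), and on the mean of its probe sets it was at -0.33 and not called. Of these 5 genes, Bdnf had the narrowest range over the 129S2 arrays.

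The count of called immediate early genes rests on single arrays. Without 129S2 replicate 2, 11 were called lower and 1 higher, the pentraxin gene Nptx2 at 0.64, and the median was -0.66. The values were then -1.43 for Fosb, -1.80 for Egr2, -1.12 for Arc, -1.22 for Nr4a3 and -0.74 for Bdnf. Leaving out any 1 of the other 8 arrays ended the calls of Fosb (adjusted p between 0.062 and 0.134) and Egr2 (between 0.0709 and 0.131). Without 129S2 replicate 1 only 1 was called lower, and without replicate 3 it was 2. Leaving out a DBA/2J array gave 1, 3 and 1, and leaving out a C57BL/6J array gave 2 each time. With a trended variance the count was 1. The summed linear signal of the 20 genes ran from 15484 to 24199 over the 129S2 arrays, against 26165 to 27259 over the DBA/2J arrays and 21760 to 22641 over the C57BL/6J arrays. In P7 brain, on arrays of their own, 6 of the 19 were below 0 and the median was 0.10. There 4865 of all 11503 tested genes were below 0.

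Heat shock and chaperone genes had the more even pattern. All 13 tested members were below 0, with a median of -0.44 against -0.003 over all tested genes. Of the 13, 4 were called lower in 129S2, against 1.03% of all tested genes, and none was called higher. Hspa1b, an inducible Hsp70 gene, had 8.05, 8.85 and 8.25 log2 units in 129S2, against 9.91, 9.16 and 9.29 in DBA/2J, and 8.88 to 9.25 in C57BL/6J. Its difference was -1.07 ± 0.23 (adjusted p = 0.0139), and 2 further probe sets were called the same way. Its neighbour Hspa1a had 6.90, 7.59 and 6.99 in 129S2, against 8.41, 7.69 and 7.91 in DBA/2J (difference -0.84 ± 0.20, adjusted p = 0.0244). The small heat shock gene Hspb1 had 8.62, 8.81 and 8.65 in 129S2, against 9.44, 9.31 and 9.24 in DBA/2J, a difference of -0.64 ± 0.10 (adjusted p = 0.0028). Cryab, the alpha-B crystallin chaperone, had 9.51, 10.24 and 9.85 in 129S2, against 10.86, 10.64 and 10.81 in DBA/2J (difference -0.90 ± 0.15, adjusted p = 0.00426), and a second probe set was called the same way at -0.97. The strains overlapped for none of the 4, as they did not for 202 of the 203 called genes and 29.8% of all tested genes. Hspa1b lost its call without 129S2 replicate 1 (adjusted p = 0.0517). Without 129S2 replicate 2, 5 were called, with the cochaperone gene Dnajb1 added at -0.67, and the values were -1.30 for Hspa1b, -1.06 for Hspa1a, -0.69 for Hspb1 and -1.09 for Cryab. The count was 2 without 129S2 replicate 1 and 2 without DBA/2J replicate 1, the array with the highest Hspa1a and Hspa1b. Hspa1a lost its call when 4 of the other 8 arrays were left out in turn (adjusted p between 0.0577 and 0.0865).

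In P90 liver, on arrays of their own, all 13 chaperone genes were below 0 as well, with a median of -0.81, and Hspa1b was at -2.92, Hspa1a at -1.86 and Hspb1 at -1.77. In P7 brain 5 of 13 were below 0 and the median was 0.04. Of all 11503 tested genes, 5899 were below 0 in P90 liver and 4865 in P7 brain. The immediate early genes had a median of 0.06 in P90 liver.

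**Figure D4:**
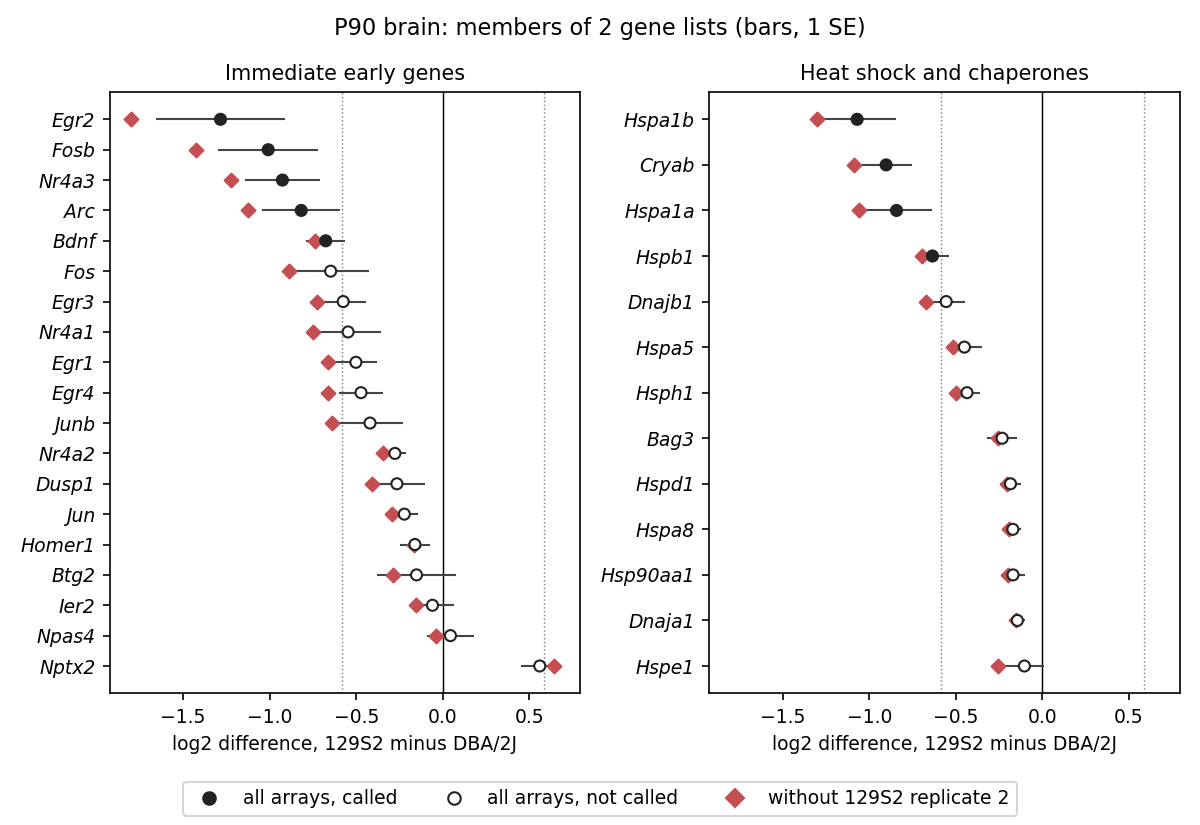
Log2 difference of 129S2 minus DBA/2J in P90 brain (horizontal axis) for the tested immediate early genes (left) and heat shock and chaperone genes (right). Circles are the fit with all arrays with bars of 1 SE, filled where called, diamonds are the values without 129S2 replicate 2, and dotted lines mark a 1.5-fold difference. Of 19 immediate early genes 17 lie below 0, and 13 of 13 chaperone genes do.

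Upstream sequences are shown for the 3 called heat shock genes that have a single entry in the RefSeq promoter table, because these members were lower together. The letters are those of the C57BL/6J reference (GRCm38.p6), not of 129S2 or DBA/2J. Each entry holds 300 bases around a gene's start on the gene's strand, at chr17:34972107-34972406 (minus strand) for Hspa1a, chr17:34959189-34959488 (minus strand) for Hspa1b and chr5:135887669-135887968 (plus strand) for Hspb1. Capitals mark matches to GAANNTTC, a short form of the heat shock element that reads the same on both strands.
Hspa1a: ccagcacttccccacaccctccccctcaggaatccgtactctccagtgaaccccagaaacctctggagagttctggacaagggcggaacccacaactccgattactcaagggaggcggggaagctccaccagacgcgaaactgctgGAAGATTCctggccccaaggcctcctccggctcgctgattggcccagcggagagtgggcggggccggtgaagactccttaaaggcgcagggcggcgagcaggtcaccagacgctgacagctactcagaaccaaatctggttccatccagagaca
Hspa1b: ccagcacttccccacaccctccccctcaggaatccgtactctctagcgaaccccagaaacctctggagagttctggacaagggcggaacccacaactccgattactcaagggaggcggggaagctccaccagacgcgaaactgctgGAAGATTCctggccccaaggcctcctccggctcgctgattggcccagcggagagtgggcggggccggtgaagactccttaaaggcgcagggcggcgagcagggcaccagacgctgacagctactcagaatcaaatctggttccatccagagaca
Hspb1: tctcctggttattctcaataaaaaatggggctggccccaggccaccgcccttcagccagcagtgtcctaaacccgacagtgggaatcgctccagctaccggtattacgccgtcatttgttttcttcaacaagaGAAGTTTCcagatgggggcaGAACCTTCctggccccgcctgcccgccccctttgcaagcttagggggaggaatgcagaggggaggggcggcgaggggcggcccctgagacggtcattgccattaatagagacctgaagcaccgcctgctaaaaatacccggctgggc
The Hspa1a and Hspa1b sequences had the same letter at all but 4 of 300 positions. Probe sets for these genes may read both, which was not tested and which these upstream letters do not show. There was 1 match each in Hspa1a and Hspa1b and there were 2 matches in Hspb1, while 7.86% of the 32851 promoters in the table hold at least 1. The other arrangement, TTCNNGAA, was in none of the 3 windows and in 8.52% of all promoters. A match is a description of letters. Fosb and Nr4a3 had a single entry each, without a match to GAANNTTC, TTCNNGAA, TGACGTCA (the full cyclic AMP response element, in 1.79% of all promoters) or the CArG box (in 1.63%).

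Of the 16 tested clock genes, 1 was called, and it was higher in 129S2. Of all tested genes 0.73% were called higher and 1.03% lower. With limma 8 of the 16 had an adjusted p below 0.05 at any fold, against 1470 of all 11503 tested genes. Dbp, an output factor of the clock, had 10.84, 10.89 and 10.35 log2 units in 129S2, against 9.88, 10.06 and 9.90 in DBA/2J, a difference of 0.75 ± 0.13 (adjusted p = 0.00614, and 0.65 without replicate 2), and a second probe set gave 0.68 and was also called. In P90 liver, on arrays of their own, its difference was 4.52. Per1, another clock gene that also answers to neuronal activity, was at -0.58 and was called only without replicate 2, and Nr1d1 was at 0.48 and was not called.

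Marker lists of cell types held few calls. The calls below are read against 1.03% of all tested genes called lower and 0.73% called higher. Over all 11503 tested genes limma gave an unadjusted p below 0.05 to 3305, and an adjusted p below 0.05 at any fold to 1470. Of 14 tested microglial genes 2 were lower in 129S2, the complement gene C1qa (8.82, 9.14 and 9.0 in 129S2, against 9.65, 9.70 and 9.48 in DBA/2J, difference -0.62 ± 0.08, adjusted p = 0.00105) and the cathepsin S gene Ctss (-0.70 ± 0.09, adjusted p = 0.00126). The complement genes C1qb and C1qc were at -0.05 and 0.02 and the microglial receptor gene Cx3cr1 at -0.01, none of them called. The summed linear signal of the 15 measured microglial genes was 6324 to 7431 in 129S2, against 7758 to 8072 in DBA/2J. This sum includes C1qa and Ctss, so it does not speak for the other members. Of the 14 tested microglial genes 10 were below 0, with a median of -0.07. Of 9 tested genes of choroid plexus and ependyma, 1 was lower, the secreted Wnt and BMP antagonist gene Sostdc1 at -0.81 ± 0.17. The list had a median of -0.28, and 6 of its 9 tested genes had an adjusted p below 0.05 at any fold. Its sum of 14 measured genes, which includes the transthyretin gene Ttr, was 17106 to 18168 in 129S2, against 19303 to 20887 in DBA/2J. The pericyte gene Rgs5 was the only call of 13 tested endothelial and pericyte genes. It had 10.18, 10.92 and 9.94 in 129S2, against 10.99, 11.06 and 11.03 in DBA/2J (difference -0.68 ± 0.19, adjusted p = 0.0428). Leaving out any 1 of the 8 arrays other than 129S2 replicate 2 ended its call (adjusted p between 0.0633 and 0.131). Its other probe sets gave -1.66 and -0.85, both called, and -0.27, not called. On the mean of its probe sets Rgs5 was at -0.86 and called. The call of Sostdc1 ended without DBA/2J replicate 1 (adjusted p = 0.0601), and that of C1qa ended without 129S2 replicate 1 and without DBA/2J replicate 2, where its fold fell short of the minimum. Without replicate 2 the values were -0.70 for C1qa, -0.81 for Ctss, -1.04 for Sostdc1 and -0.97 for Rgs5. With limma none of 16 tested astrocyte genes was called (5 had an unadjusted p below 0.05), and none of 12 tested genes of the meninges (2 had). Of these 12, 10 were below 0, against 5882 of all 11503 tested genes. Of the 16 tested myelin genes none was called with all arrays and Opalin, a protein of oligodendrocytes, was called without replicate 2. The list had a median of 0.17, and 9 of the 16 had an adjusted p below 0.05 at a fold under the minimum (10 an unadjusted p below 0.05). The part of cell composition in any of these differences was not tested.

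Transmitter genes were called one at a time. The vesicular glutamate transporter gene Slc17a7 was the only call of 20 tested synaptic vesicle genes, with 11.07, 11.00 and 10.84 in 129S2, against 10.16, 10.61 and 10.27 in DBA/2J (difference 0.62 ± 0.11, adjusted p = 0.00495). The GABA-A receptor subunit gene Gabrb2 was the only call of 9 tested subunits, at 0.60 ± 0.08 (adjusted p = 0.00105), and at 0.55 without replicate 2 it fell short of the fold minimum. Of 20 tested neuropeptide precursor genes the corticotropin-releasing hormone gene Crh alone was called, with 7.10, 7.32 and 7.42 in 129S2, against 7.95, 7.89 and 7.87 in DBA/2J (difference -0.62 ± 0.08). The dopamine D1 receptor gene Drd1 was at -0.60 ± 0.14, with a second probe set at -0.16 that was not called, and it was the only call of 12 tested striatal markers. Its call ended in 5 fits that each left out another of the 129S2 and DBA/2J arrays (adjusted p between 0.0349 and 0.0592), and on the mean of its probe sets it was at -0.38 and not called. The potassium channel gene Kcnj6 was at -0.64 ± 0.09 (adjusted p = 0.00172), the only call among 27 tested potassium channel genes. Without DBA/2J replicate 1 the calls of Slc17a7 and Gabrb2 ended at a fold below the minimum, and without 129S2 replicate 1 those of Slc17a7 and Crh did. On the mean of its probe sets Gabrb2 was at 0.41 and not called. Without replicate 2 the values were 0.61 for Slc17a7, -0.64 for Crh, -0.76 for Drd1 and -0.67 for Kcnj6. Of 22 tested sodium and calcium channel genes, 14 ionotropic and 9 metabotropic glutamate receptor genes and 16 postsynaptic density genes, limma called none, and 4, 3, 0 and 6 of them had an unadjusted p below 0.05. Among all 11503 tested genes, 3305 had such a p.

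Among genes of sphingolipids and lysosomes, 25 were tested, 1 was higher (Acer3) and 1 was lower (Galc), and without replicate 2 the ceramidase gene Acer2 was also called lower, at -0.66. Of 23 tested ribosomal protein genes 1 was lower (Rpl14), and 21 were below 0 with a median of -0.08. None of 30 tested genes of oxidative phosphorylation, 13 of the interferon response, 11 of antigen presentation or 23 of detoxification was called by limma with all arrays, while 3, 8, 4 and 5 of them had an unadjusted p below 0.05. Without replicate 2, 3 genes of these lists were called, the interferon-induced gene Xaf1 (0.75), the class II antigen gene H2-Aa (0.76) and the glutathione transferase gene Gstm6 (-0.59). Of 12 tested genes that respond to glucocorticoids, 11 were below 0 and the cell cycle inhibitor gene Cdkn1a was called lower, with 7.87, 8.51 and 8.14 in 129S2, against 9.06, 8.84 and 8.92 in DBA/2J (difference -0.76 ± 0.16, adjusted p = 0.0131, and -0.93 without replicate 2). Its call ended without DBA/2J replicate 1 (adjusted p = 0.0596). Of 18 tested genes at loci known to vary among laboratory strains, limma called none, and 5 had an unadjusted p below 0.05. The counts at unadjusted p in this paragraph stand beside 3305 of all 11503 tested genes.

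Neighbouring called genes were counted, and the number of pairs that a random order would give was not computed. In the RefSeq order of 11482 placed genes, 202 called genes formed 3 adjacent pairs of the same direction and 5 of opposite direction. Hspa1a with Hspa1b and Pcdhb9 with Pcdhb12 lay within 1 Mb. Pcdhb12 was at -0.67 ± 0.11 (adjusted p = 0.00482), and these were the only calls of 8 tested beta protocadherins, which are similar in sequence. The ribonuclease subunit gene Pop4 (-0.88 ± 0.06, adjusted p = 2.29e-05) and Zfp939 were adjacent among the tested genes but more than 1 Mb apart. Without replicate 2 Pcdhb12 was at -0.59 and Pop4 at -0.83, and 283 placed called genes formed 8 adjacent pairs of the same direction and 9 of opposite direction. The call of Pcdhb12 ended without DBA/2J replicate 1, at a fold below the minimum.

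The same 203 genes were then read on arrays of other stages and of liver, which share no array with the P90 brain. At P7 the difference had the same sign in 179 of 203 and reached 1.5-fold the same way in 87, and it reached 1.5-fold the opposite way in 0. Of the 11300 tested genes that were not called, 51.8% had the same sign at P7, and 1.56% of all tested genes were 1.5-fold apart either way. At P1 the counts were 179 and 92, with 2 opposite (60% of the genes not called had the same sign, and 1.75% of all tested genes were 1.5-fold apart). At E14.5 they were 169 and 72, with 3 opposite (51.9% and 2.05%). In P90 liver they were 151 and 65, with 5 opposite (53.4% and 5.76%). At all 3 earlier stages of brain 54 of the 203 were 1.5-fold apart the same way, and at none of them 91. In P7 brain and P90 liver alike, 34 were. For the 284 genes called without 129S2 replicate 2, the same sign and 1.5-fold counts were 237 and 99 at P7, 241 and 105 at P1, 224 and 85 at E14.5, and 203 and 84 in P90 liver. Of these 284, 62 were 1.5-fold apart the same way at all 3 earlier stages and 153 at none.

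The genes of the extremes fell into several kinds. Galc had -2.77, -2.49 and -2.47 at E14.5, P1 and P7, and Stab2 had -2.62, -2.11 and -2.12. Gdpd3 had 0.00, 0.59 and 1.24 at these stages, and 5.04 in P90 liver. Sdc4 had -0.02, 0.09 and 0.08 in the younger brains and 2.07 in P90 liver. The values of Nek2 were 0.65, 0.76 and 1.08, and 0.13 in P90 liver.

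A direct comparison asked which of these differences are not the same at P90 and P7, by a test of the P90 difference minus the P7 difference. The sets had been normalized apart, and a scale that differs between them could change the result. Of 11503 genes, 93 were called (0.808%), 31 with a positive and 62 with a negative value, and 42 of them were also called at P90. The split of directions moved with the scaling, to 26 positive and 33 negative after quantile normalization and to 26 positive and 86 negative after median centring. Without 129S2 P90 replicate 2 the count was 168, of which 87 were shared, and it was 53 to 122 when any other of the 129S2 and DBA/2J arrays was left out. Sdc4 had the P90 difference of 2.18 beside 0.08 at P7, where 129S2 had 8.20, 8.57 and 8.37 and DBA/2J had 8.39, 8.30 and 8.22. The P7 arrays overlapped and the P90 arrays did not, and the test gave 2.10 ± 0.13. Tm9sf4, a transmembrane protein of endosomes, had 8.91, 8.88 and 8.95 in 129S2, against 7.99, 7.84 and 8.10 in DBA/2J at P90. At P7 it had 9.59, 9.53 and 9.57 in 129S2, against 9.65, 9.65 and 9.64 in DBA/2J. The test gave 1.02 ± 0.09, and a second probe set at P90 was called the same way at 1.27. Rpgrip1 was at -2.24 at P90 and -0.49 at P7 (test -1.75 ± 0.16), with P7 levels of 7.67, 7.87 and 8.11 in 129S2, against 8.65, 8.20 and 8.27 in DBA/2J. Zfp949, a zinc finger gene, was less far apart at P90 (-0.84) than at P7 (-1.66), with a test value of 0.82 ± 0.10. Snhg11 (1.23 ± 0.14) and Stab2 (-1.46 ± 0.17) were further apart at P90. With each gene refitted on the mean over all its probe sets the call was lost for Sdc4 (0.42), Snhg11 (0.63) and Zfp949 (0.39). Without 129S2 P90 replicate 2 the test gave 2.05 for Sdc4, 1.04 for Tm9sf4, -1.84 for Rpgrip1, 0.77 for Zfp949, 1.31 for Snhg11 and -1.52 for Stab2. Snhg14 was nearer at P90, with 2.23 beside 5.38 at P7, where 129S2 had 11.37, 11.26 and 11.36 and DBA/2J had 5.01, 7.54 and 5.29. DBA/2J replicate 2 at P7 lay well above the other DBA/2J arrays.

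**Figure D5:**
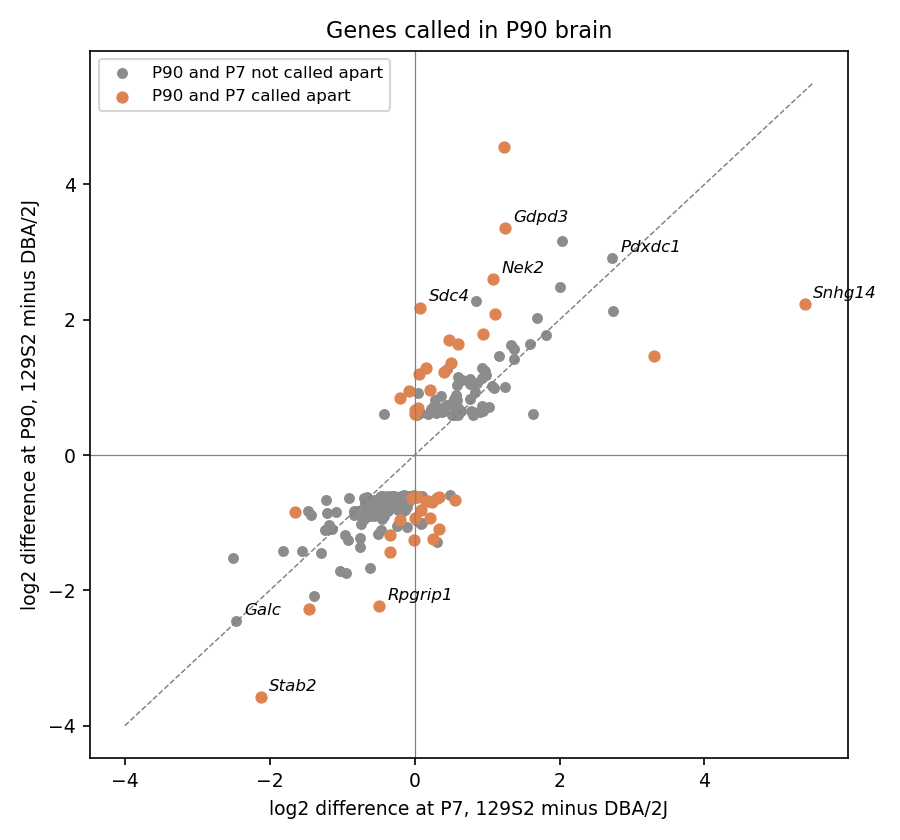
Log2 difference of 129S2 minus DBA/2J at P7 (horizontal axis) and at P90 (vertical axis) for the 203 genes called in P90 brain, in orange where the P90 and P7 differences were called apart (42 genes). The dashed line marks equal differences. Sdc4 lies near 0 on the P7 axis at 2.18 on the P90 axis, and Snhg14 lies at 5.38 and 2.23.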

How the data were processed

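The deposited values are log2 signals of 45101 probe sets that the authors had made with RMA, per the submitters' processing notes, which give no version. The P90 brain arrays of 3 strains (9 arrays) share exact values (2.51 to 4.31% per pair), and none with the other arrays, so they were normalized as a set. Per the labels' protocols, TRIzol and then RNeasy columns were used for total RNA, and cRNA made in a one-cycle reaction carried biotin.

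Genes were named through the platform annotation, which gives 1 symbol to 34958 probe sets, several to 932 and none to 9211, and the gene IDs of these symbols needed 0 updates against RefSeq. Each of 18194 genes was read on the probe set that was brightest on average over the 9 arrays. A gene was tested (11503) when its highest strain mean exceeded the median of all values, 6.43. Strains were compared with limma 3.58.1 in R 4.3.3 (lmFit with a mean per group, eBayes, two-sided, Benjamini-Hochberg adjustment), and called when apart by 1.5-fold or more at an adjusted p below 0.05. The P90 and P7 comparison used 18 brain arrays. The code was tested on simulated data. The text names the 14 highest and 14 lowest called genes that kept their sign without 129S2 replicate 2, up to 3 called members of each list, members of neighbour pairs and the 6 called genes of the P90 and P7 comparison with the smallest p. Clone-like symbols (16 called) are not named. Members of lists named outside this rule were chosen after their values were seen. The comparison, the 39 gene lists and the rules were chosen with earlier results of these data known. One list, of strain differences taken from such results, had 5 called higher and 5 lower among 19 tested, which supports nothing. Lists without a call and not described above were GABA synthesis, neuropeptide receptors, oligodendrocyte precursors, blood, liver, cerebellum, cortex and hippocampus, thalamus and hypothalamus, but without 129S2 replicate 2 the thalamic list had 1 called lower (Tnnt1). None of the 8 measured genes of pituitary and pineal passed the filter, so no call was possible there. Monoamine genes had 1 call (Drd1). Deviations of same-numbered 129S2 and DBA/2J arrays correlated at -0.031, -0.09 and 0.093 across genes. Those of 129S2 and C57BL/6J correlated at 0.186, 0.08 and 0.2, and those of C57BL/6J and DBA/2J at -0.086, -0.122 and 0.013. No pairing was used in the main fit, and whether the numbers pair arrays is not known. Figures were drawn with matplotlib 3.10.9.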

Additional observations from a re-analysis of the deposited data

Results flagged for a closer look

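The difference between 129S2 and DBA/2J in brain was not the same at P90 and P7 for 93 genes, by a test of the P90 difference minus the P7 difference. Among the named genes the value was positive for Gdpd3 (2.11), Sdc4 (2.10), Nek2 (1.52), Snhg11 (1.23), Fggy (1.04), Tm9sf4 (1.02), Neat1 (0.98) and Zfp949 (0.82). It was negative for Snhg14 (-3.16), Rpgrip1 (-1.75), Stab2 (-1.46), Nr4a3 (-1.13), Mpeg1 (-1.09), Crh (-0.96), Pcdhb9 (-0.82) and C1qa (-0.64). For Crh the P90 difference was -0.62 and the P7 difference 0.34, for Nr4a3 -0.93 and 0.21, and for C1qa -0.62 and 0.02. Pcdhb9 was not called without 129S2 P90 replicate 2, and the other named genes were. The stages were normalized apart, and the part of that in these values was not tested.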

How the results depend on the processing

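The count of 203 called genes was 491 when every probe set was tested by itself, 1470 with no fold minimum and 72 with a fold of at least 2. It ran from 151 to 284 when an array was left out, the highest without 129S2 replicate 2. The count of 93 genes apart between P90 and P7 was 61 with the mean of the probe sets, 162 with every probe set, 59 after quantile normalization, 159 with array weights, 52 with the 129S2 and DBA/2J arrays alone, 58 with all brain arrays, 185 with no fold minimum and 27 with a fold of at least 2. It ran from 53 (without DBA/2J P90 replicate 3) to 168 (without 129S2 P90 replicate 2) when an array was left out. It was 54 without DBA/2J P90 replicate 1 and 55 without DBA/2J P7 replicate 3, and 61 without 129S2 P90 replicate 1. The replicate number as a block gave 205 and 129, and whether the numbers pair arrays is not known. Of immediate early genes 1 to 11 were called lower, and of chaperone genes 2 to 5, when an array was left out (chosen after seeing the data). The causes were not tested. No named result changed sign under the alternatives run, leaving aside the test of every probe set by itself, where named genes were not compared. In that test another probe set was called the opposite way for Pdxdc1 (-3.72) and for Sdc4 (-1.49). Of the 54 named results, 46 were in a refit on the mean of all probe sets of a gene. The others, Galc, Nek2 and Rpgrip1 among them, fell below the filter on that mean, so no sign is given for them there. The refit moved 15 of 46 named results by over 1.5 times. In it 11 lost their call, Pdxdc1 at 0.14 and Snhg14 at 0.56 among them. With a fold of at least 2, 19 of 54 named results were no longer called, a loss that this minimum sets by construction. Without 129S2 replicate 1, 13 of 48 were not called, and without DBA/2J replicate 1, 14. Without 129S2 replicate 2, 47 of 48 named genes kept their call, Gabrb2 (0.55) being the exception.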
